A study of Mus musculus with 4 samples.

Results

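Occupancy by RYBP was read at 9 genes of the erythroid programme: Klf1, Nfe2, Epor, Ache, Gypc, Slc4a1, Hba-x, Hbb-bh1 and Hbb-y. The genes were listed by name out of 22208 protein-coding symbols that GENCODE annotates on mm9. The list was drawn up with earlier results of these data known, so counts over it are not independent of occupancy. A locus consisted of the gene body and the 5 kb before it. Of the 22409 merged RYBP regions of the series, 8 overlapped one of these loci, and they lay at 5 of the 9 genes.

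RYBP is a subunit of non-canonical forms of Polycomb repressive complex 1, which place ubiquitin on histone H2A, and these complexes are known to sit mostly at CpG-rich promoters. Primitive red cells are the first blood cells of the embryo. They arise from FLK1+ mesoderm and carry embryonic haemoglobin, made from the zeta chain of Hba-x and the beta-type chains of Hbb-bh1 and Hbb-y. Their programme is switched on by transcription factors such as KLF1, and erythropoietin, through its receptor, later sustains red cell precursors.

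The series holds 4 samples of FLK1+ mesoderm from wild-type embryoid bodies (clumps of mouse ES cells left to differentiate), labelled as strain C57Bl/6 X Sv129 and day 3.75. The design text adds a lack of PDGFRa and separate differentiations for the replicates, while the methods name J1 as the wild-type ES line and place the RYBP experiment slightly later, at day 4. There were 2 ChIP samples, precipitated with an antibody against DEDAF, another name of RYBP, and 2 input samples, which have no antibody and whose reads were not analysed here. RNA was not measured in these samples, so neither the identity of the sorted cells nor the transcription of the 9 genes could be read from the peaks.

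Replicate 1 held 14794 peaks and replicate 2 held 18154, called separately. The merged list is their union, so a region can rest on 1 replicate alone. Each peak carries a fold enrichment, the ratio of ChIP pile-up to local background, and the −log10 of a q-value, whose lowest values were 1.00 and 1.01. There is 1 condition and there are 2 replicates, so no difference could be tested, and each value is a description of these samples. Peak lists carry no read depth, and a locus without a peak is a locus where none was called at this depth. The paper lists more mapped reads for its first RYBP sample than for its second, and the effect of depth on the calls was not tested.

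Merged regions were present at Klf1, Epor, Ache, Gypc and Slc4a1 and absent at Nfe2 and the 3 embryonic globin genes. The count of 5 of 9, or 55.6%, stands beside 57.1% of all protein-coding genes. A region overlapping peaks of both replicates was present at 3 of the 9, Klf1, Epor and Ache. That is 33.3%, beside 38.9% of all genes. In replicate 1 alone 4 of the 9 loci held a peak (43.9% of all genes did), and in replicate 2 alone 4 of the 9 (53.7% of all genes). As a group the erythroid genes lay close to the level of all genes or below it, and what follows is which of them carried peaks, and where.

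**Figure D1:**
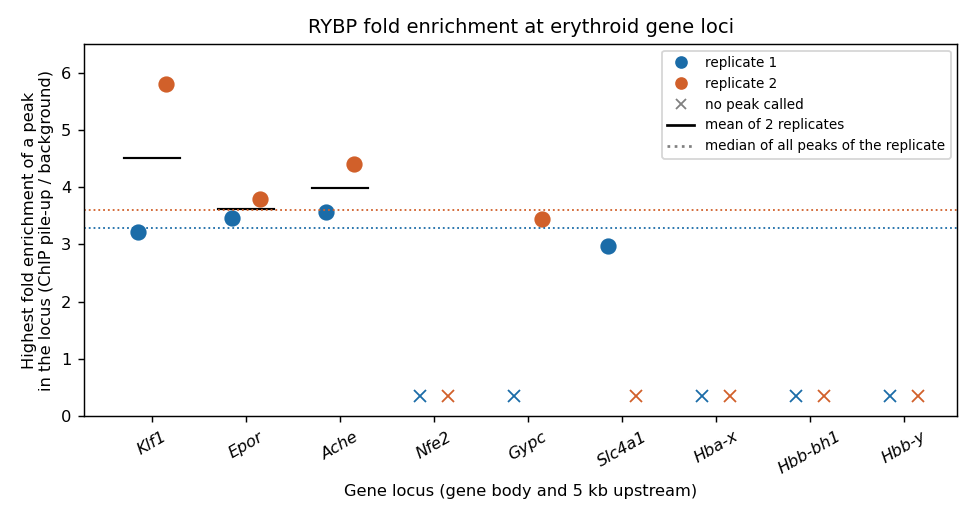
Highest fold enrichment (ChIP pile-up over background) of a peak in each of the 9 loci in replicate 1 (blue) and replicate 2 (orange), with crosses near the axis where no peak was called, black bars for the mean of 2 replicates, and dotted lines for the median of all peaks of each replicate, 3.29 and 3.60. Klf1, Epor and Ache have both points, Gypc and Slc4a1 have 1 each, and Nfe2 and the globin genes have none. The replicate 2 point of Klf1, 5.80, is the highest.

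Klf1 encodes the zinc-finger transcription factor that activates globin and other red cell genes. The gene (ENSMUSG00000054191.7) lies at chr8:87425827-87429194 on the plus strand of mm9. Its RYBP region, chr8:87426505-87428497, was 1993 bp wide and began 678 bp after the start site. It covered the second of 3 exons, which is coding, with parts of both introns, and left the start site itself free. Fold enrichment was 3.21 in replicate 1 and 5.80 in replicate 2, with a mean of 4.51 ± 1.83 (SD, n = 2). In replicate 2 this peak stood at the 97.9th percentile of its list by q-value and the 96.9th by fold enrichment. In replicate 1 the same percentiles were 76.8 and 43.1. The Klf1 peak was among the strong ones of replicate 2 and under the middle of replicate 1 by fold enrichment.

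The replicates also differed in the width of the Klf1 peak. Replicate 1 spanned the whole region, and replicate 2 called 768 bp, from 834 to 1601 bp after the start, which is 38.5% of it. Both peaks contained a 500 bp stretch with the highest CpG density of the locus, 10.2 CpG per 100 bp at 1100 to 1599 bp after the start. An overlapping 500 bp window centred 1450 bp after the start had the same density and ran past the end of the replicate 2 peak. Around the start site the density was 0.500 per 100 bp (500 bp on each side), at the 7.93rd percentile of all genes. The 200 bases before the Klf1 start and the 200 most CpG-dense bases of its region, all of them coding sequence of exon 2 at 1128 to 1327 bp after the start, are shown to let the contrast be seen. Each is written 5′ to 3′ along the gene, with every CG in capitals.
Klf1 upstream, chr8:87425627-87425826: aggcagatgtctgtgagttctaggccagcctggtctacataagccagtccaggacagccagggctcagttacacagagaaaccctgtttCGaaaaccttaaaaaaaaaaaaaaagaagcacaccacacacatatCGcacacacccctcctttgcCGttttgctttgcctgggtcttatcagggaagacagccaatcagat
Klf1 region, chr8:87426955-87427154: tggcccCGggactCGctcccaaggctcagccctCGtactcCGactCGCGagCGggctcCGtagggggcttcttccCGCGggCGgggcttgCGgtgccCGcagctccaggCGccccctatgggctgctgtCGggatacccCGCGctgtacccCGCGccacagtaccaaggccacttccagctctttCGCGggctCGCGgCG
The upstream stretch holds 3 CG and the stretch within the region holds 24.

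Epor encodes the receptor for erythropoietin. The gene (ENSMUSG00000006235.5) lies at chr9:21763343-21768020 on the minus strand. As at Klf1, the region lay after the start site: chr9:21764558-21766954, 2397 bp wide, ran from 1066 to 3462 bp downstream of it across exons 2 to 6 of 8. Of its bases 709 were coding and 1688 intronic. Fold enrichment was 3.46 in replicate 1 and 3.79 in replicate 2, a mean of 3.62 ± 0.232 (SD, n = 2). The peaks ranked at the 63.1st and the 57.2nd percentile of their lists by q-value, near the middle. They covered 97.2% and 85.2% of the region, so at Epor the replicates called nearly the same interval.

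CpG density was 1.90 per 100 bp around the Epor start and 3.92 within its region. The highest density of the locus in 500 bp windows, 6.60 per 100 bp, was shared by separate windows. The first lay at 800 to 1299 bp after the start, and 234 of its bases were inside the region. The other, centred 1850 bp after the start, lay wholly inside the region. The sequences are shown for the same contrast as at Klf1, on the minus strand with CG in capitals. The second stretch lies over exon 5 and its edges.
Epor upstream, chr9:21768021-21768220: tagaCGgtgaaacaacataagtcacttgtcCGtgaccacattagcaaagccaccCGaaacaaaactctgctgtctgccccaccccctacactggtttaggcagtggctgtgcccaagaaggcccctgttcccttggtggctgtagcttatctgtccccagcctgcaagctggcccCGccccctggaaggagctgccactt
Epor region, chr9:21765097-21765296: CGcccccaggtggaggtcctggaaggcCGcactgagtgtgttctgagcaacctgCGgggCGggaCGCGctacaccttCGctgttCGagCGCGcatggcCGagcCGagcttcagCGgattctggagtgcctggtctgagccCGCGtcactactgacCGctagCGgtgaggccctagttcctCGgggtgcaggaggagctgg
The numbers of CG are 4 and 18.

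Ache encodes acetylcholinesterase, an enzyme of synapses that is also anchored on the red cell surface, and is the 1 gene of the 9 whose start site lay inside a RYBP region. It lies at chr5:137728747-137735694 on the plus strand (ENSMUSG00000023328.8) and has 6 annotated coding start sites, of which the one at 137729505 is used here. The first region, chr5:137728372-137732097, was 3726 bp wide and reached from −1133 bp to 2592 bp about this start, over exons 1 and 2 of 5. Fold enrichment was 3.57 in replicate 1 and 4.41 in replicate 2, with a mean of 3.99 ± 0.595 (SD, n = 2). In replicate 1 this was 1 peak across the start. In replicate 2 it was 2 peaks, one of 351 bp at −1111 to −761 bp from the start with the fold enrichment of 4.41, and one of 2522 bp beginning 71 bp after it with 3.63. The base of this described start was therefore covered in replicate 1 and fell in a gap in replicate 2. Of the 6 starts, those at 137730316 and 137730475 lay inside a peak of each replicate.

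A second region lay at the other end of Ache, at chr5:137734475-137736317, over exons 4 and 5 and beyond the gene. It also contained the start site of the neighbouring Ufsp1, which encodes a protease of the UFM1 pathway, so it cannot be assigned to Ache alone. Its fold enrichment was 2.81 in replicate 1 and 3.23 in replicate 2. Both values lay below the medians of their lists, and the replicate 1 peak covered 28.9% of the region. CpG density was 4.94 per 100 bp in this second region, 4.27 in the first, and 7.10 around the Ache start, at the 74.9th percentile of all genes. The 200 bases upstream of the start and the densest 200 bases of the first region, which lie at −1111 to −912 bp, show a CpG-rich promoter beside those of Klf1 and Epor.
Ache upstream, chr5:137729305-137729504: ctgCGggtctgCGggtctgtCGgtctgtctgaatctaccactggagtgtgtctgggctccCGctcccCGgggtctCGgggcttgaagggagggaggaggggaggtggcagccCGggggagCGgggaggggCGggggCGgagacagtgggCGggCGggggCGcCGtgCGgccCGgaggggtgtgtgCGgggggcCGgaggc
Ache region, chr5:137728394-137728593: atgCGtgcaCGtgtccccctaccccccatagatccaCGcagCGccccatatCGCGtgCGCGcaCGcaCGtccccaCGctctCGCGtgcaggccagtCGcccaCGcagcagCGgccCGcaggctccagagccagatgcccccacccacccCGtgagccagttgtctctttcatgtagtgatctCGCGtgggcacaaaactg
They hold 18 and 20 CG.

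Among the 3 genes with peaks of both replicates the order of fold enrichment was not stable. It ran Ache, Epor, Klf1 from high to low in replicate 1 and Klf1, Ache, Epor in replicate 2. The ranges of the 3 genes overlap, and no neighbours in the order of means, Klf1 above Ache above Epor, differ by more than their spread. Over all loci with a peak the median of the highest fold enrichment was 3.53 for replicate 1 and 3.92 for replicate 2. Ache lay above both medians, Epor below both, and Klf1 below the first and above the second. Of the wider erythroid genes introduced further on, the one nearest in fold enrichment over the 2 samples was Ldb1 for Klf1 (3.05 and 5.21), Gfi1b for Epor (3.20 and 3.65) and Tmod1 for Ache (3.58 and 4.35), out of 32 genes with peaks of both replicates. At Gfi1b the peaks of the replicates did not overlap.

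**Figure D2:**
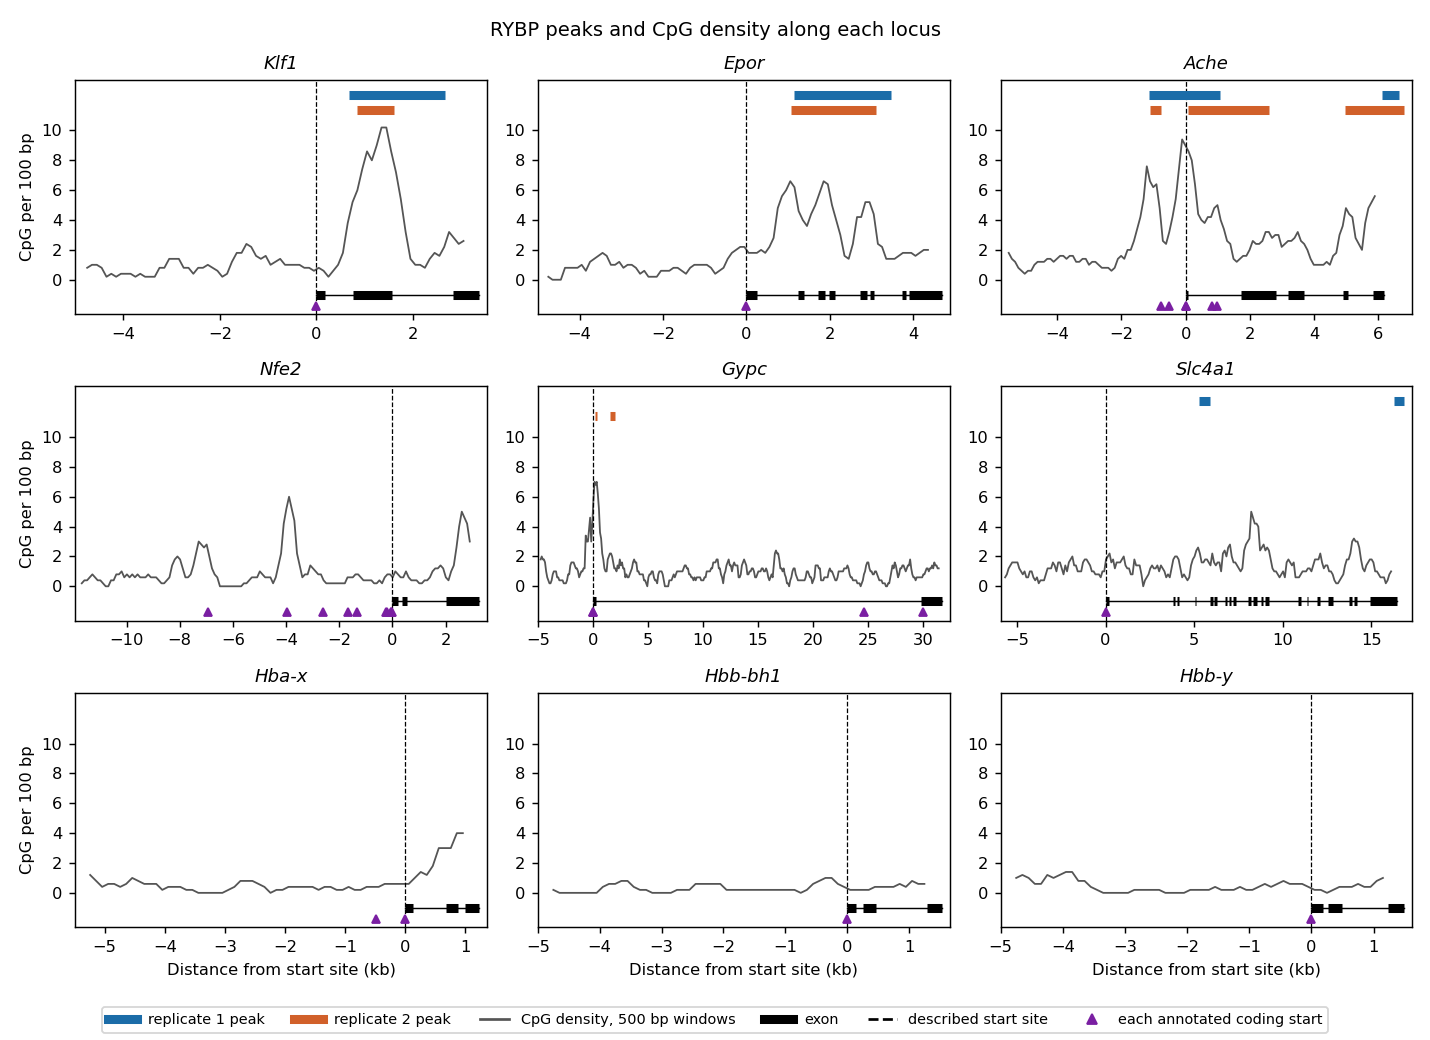
Each panel shows 1 locus with distance from the described start site in kb along the transcribed direction (horizontal axis) and CpG per 100 bp in windows of 500 bp (grey line, vertical axis). Blue and orange bars are peaks of replicates 1 and 2, black bars are exons of the described transcript, and triangles mark each annotated coding start. At Klf1 and Epor the bars sit after the dashed start site over the raised part of the CpG line, at Ache they flank and cover it, and at Nfe2 and the globin genes there are none.

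The 2 red cell membrane genes had peaks in 1 replicate each, and in different replicates. Gypc encodes glycophorin C, which ties the membrane to its skeleton, and lies at chr18:32687976-32719688 on the minus strand under 2 gene identifiers, ENSMUSG00000090523.2 and ENSMUSG00000024380.6. Replicate 2 had 2 peaks there. The one nearer the start, chr18:32719270-32719501 in the merged list, was 232 bp wide at 187 to 418 bp after the start, over exon 1 and the beginning of intron 1. Fold enrichment there was 3.45, at a −log10 q of 2.14. The other, chr18:32717645-32718157, lay in intron 1 and had 2.96 at a −log10 q of 1.07, at the 0.474th percentile of its list and so almost at the caller's threshold. Replicate 1 had no peak within 181798 bp of the start. The start-side region had the highest CpG density of the 8 regions, 9.48 per 100 bp, and the Gypc start itself had 5.70.

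Slc4a1 encodes band 3, the anion exchanger of the red cell membrane. The gene (ENSMUSG00000006574.9) spans chr11:102210138-102227517 on the minus strand. Replicate 1 had 2 narrow peaks in it. One, chr11:102220673-102221314, lay at 5280 to 5921 bp after the start over intron 4 and part of exon 5, with a fold enrichment of 2.97. The other, chr11:102209718-102210314, lay over the last part of exon 20, the final exon, and past the end of the gene, with 2.85. Their −log10 q values of 1.38 and 1.30 put both below the 17th percentile of the list, and replicate 2 had no peak within 11413 bp of the start. CpG density was 1.40 per 100 bp at the start, 1.71 in the intronic region and 2.85 in the terminal one. The densest 500 bp of the locus, 5.0 per 100 bp at 7977 to 8476 bp after the start, lay outside both regions.

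Peaks this close to the threshold were seldom found again in the other replicate anywhere in the genome. Of the 3432 replicate 1 peaks with a −log10 q from 1 to 1.5, the class of both Slc4a1 peaks, 27.7% overlapped a replicate 2 peak. Of the 2935 replicate 2 peaks in the same range, the class of the intronic Gypc peak, 13.5% overlapped a replicate 1 peak. For replicate 2 peaks from 2 to 2.5, where the start-side Gypc peak falls, the share was 45.5% of 2296. The Epor peaks fall from 2.5 to 4, where 90.6% of replicate 1 and 69.6% of replicate 2 peaks had a partner.

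Nfe2 encodes the large subunit of the NF-E2 factor, which binds globin enhancers, and no merged region overlapped its locus. The gene (ENSMUSG00000058794.6) lies at chr15:103078643-103088834 on the minus strand with 10 annotated coding start sites. The nearest region lay 10754 bp downstream of the start of its longest coding transcript, at 103081896, and rested on replicate 1 alone. In replicate 2 the closest peak was at 52642 bp. CpG density was 0.700 per 100 bp at that start, and it ranged from 0.400 to 3.30 over the 10 starts. The highest value was at 103085870, a start inside a 500 bp stretch with 6.00 per 100 bp that had 0 bases in a merged region. None of the 10 starts of Nfe2, this CpG-rich one included, lay within 2.5 kb of a region.

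The embryonic globin genes held no peak of either replicate in gene body or 5 kb upstream. Hba-x (ENSMUSG00000055609.2), of the alpha cluster, lies at chr11:32176400-32178116 on the plus strand. Hbb-bh1 (ENSMUSG00000052217.4) and Hbb-y (ENSMUSG00000052187.3), of the beta cluster, lie at chr7:110990150-110991678 and chr7:111000259-111001754 on the minus strand. CpG density at their starts was 1.00 per 100 bp for Hba-x, 0.600 for Hbb-bh1 and 0.300 for Hbb-y, which put Hbb-y at the 2.76th percentile of all genes. The 200 bases upstream of the beta-type genes are shown, minus strand and CG in capitals, to set beside that of Ache. They are promoters without a called RYBP peak and almost without CpG.
Hbb-bh1 upstream, chr7:110991679-110991878: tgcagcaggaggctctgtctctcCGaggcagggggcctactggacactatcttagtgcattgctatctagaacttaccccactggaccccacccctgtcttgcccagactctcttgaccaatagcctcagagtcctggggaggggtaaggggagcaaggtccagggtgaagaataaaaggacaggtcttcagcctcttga
Hbb-y upstream, chr7:111001755-111001954: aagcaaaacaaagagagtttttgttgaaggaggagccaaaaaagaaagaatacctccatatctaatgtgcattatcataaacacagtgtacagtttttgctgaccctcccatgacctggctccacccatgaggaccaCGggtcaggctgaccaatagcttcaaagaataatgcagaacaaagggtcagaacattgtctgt
Each holds 1 CG.

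The surroundings of the alpha-type and beta-type genes differed. Within 100 kb of the Hba-x start there were 15 merged regions, 5 of them found in both replicates, from 8 peaks of replicate 1 and 12 of replicate 2. Within 100 kb of Hbb-bh1 and of Hbb-y there were 0. Of the 9 genes these 2 alone had none within that distance, and the other 7 make a share of 77.8%, beside 79.9% of all genes. Among those 7 the number ran from 2 at Gypc, none of them found in both replicates, to 35 at Klf1, of which 17 were. Over all genes the median was 3.0 regions, and 20.1% of genes had 0, so that an empty window as such is common. The 200 kb around Hba-x held starts of 11 genes, 7 of them CpG-rich (at least 3 CpG per 100 bp), at a CpG density of 1.26. The window of Hbb-y held starts of 15 genes, 0 of them CpG-rich, at a density of 0.547.

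The region found in both replicates nearest to Hba-x, chr11:32167399-32169028, lay at −9494 to −7865 bp from its start and contained the start of Nprl3, a widely expressed gene whose introns are known to hold the alpha-globin enhancers. Its fold enrichment was 3.56 in replicate 1 and 3.21 in replicate 2. The region over the start of Rhbdf1, at −56056 to −53746 bp, had 3.91 in both replicates. One that overlaps the ends of Mpg and Nprl3, at −50366 to −48696 bp, had 3.88 and 3.38. Inside Nprl3 away from its ends there was 1 further region, at −35048 to −34568 bp, called in replicate 2 alone with 3.07 and a −log10 q of 1.26. The nearest region of all, 5773 bp after the Hba-x start, was called in replicate 1 alone with 2.86, and lies upstream of the adult gene Hba-a1. Of the 5 regions found in both replicates in this window, 4 overlapped a neighbouring gene (Rhbdf1, Mpg with Nprl3, Nprl3 and Sh3pxd2b), 1 overlapped no gene, and 0 overlapped a globin gene.

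**Figure D3:**
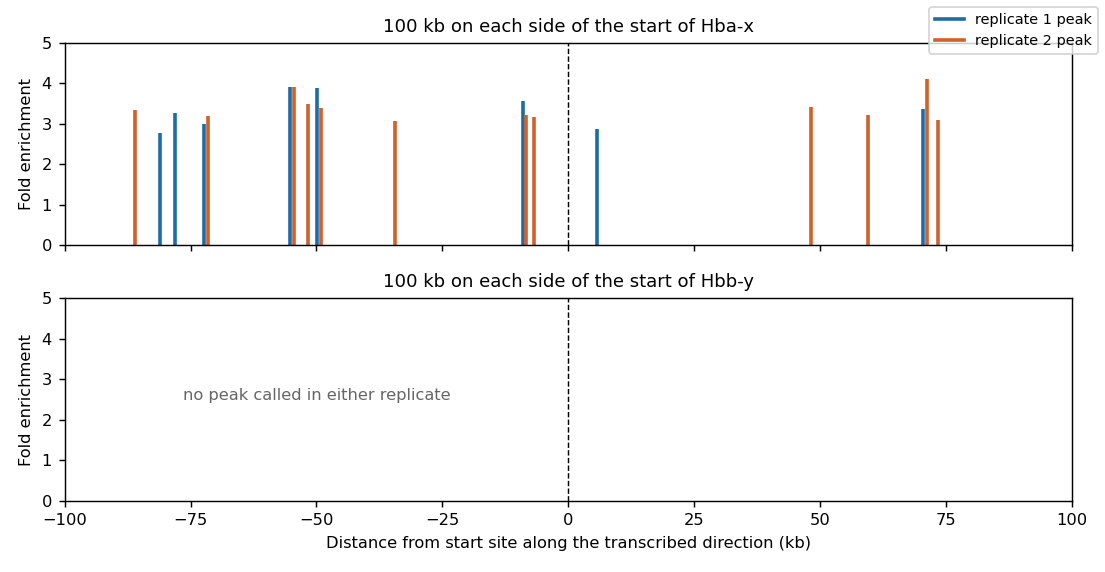
Fold enrichment (vertical axis) of each peak of replicate 1 (blue) and replicate 2 (orange), drawn at the middle of its merged region against distance in kb from the start along the transcribed direction, for 100 kb on each side of Hba-x (top) and Hbb-y (bottom). Between 2.77 and 4.1 in height, the peaks around Hba-x gather near neighbouring genes, and the Hbb-y window is empty.

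The beta-type genes sit in a long interval without a called RYBP peak. The nearest merged regions on the 2 sides were at Rrm1, found in both replicates, and at Trim6, found in replicate 2 alone. Between them 1777 kb held no region, and 189 of 22389 gaps between neighbouring regions, 0.844%, were at least as long, beside a median gap of 22.9 kb. That share counts gaps and not genes. Long gaps hold more sequence than short ones, and the share of genes lying in gaps of such length was not counted. Of 108 protein-coding genes with a start in the 1777 kb gap, 93 were olfactory receptor genes (symbols beginning with Olfr), which surround the beta-globin genes in mammals. From the Hbb-y start the Trim6 region was 365554 bp away, and the nearest replicate 1 peak was 1411076 bp away. Reads that match more than 1 place can be lost from such a cluster, so the share of 32-base words that occur once in the genome was counted. It was 100% within 500 bp of the Hbb-bh1 and Hbb-y starts and 92.7% for Hba-x. Over the whole loci it was 93.3% for Hbb-bh1, 92.0% for Hba-x and 81.9% for Hbb-y, the lowest of the 9. Over the 200 kb windows it was 81.2% for Hbb-y and 92.0% for Hba-x. The start windows of the beta-type genes were unique at this word length, and the effect of repeated sequence elsewhere in the loci and windows was not tested.

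The 9 genes were next set beside genes of like CpG density, since 57.5% of all genes have a CpG-rich start and of the 9 only Ache and Gypc do at the described start. Counting every annotated start adds Nfe2, for 3 of 9. The share of all genes under that wider rule was not counted, so the 57.5% does not apply to it. The median of the 9 was 1.00 per 100 bp, beside 4.2 for all genes. Among all genes with under 1 CpG per 100 bp, 8.52% of 4310 had a merged region in the locus (exact binomial 95% interval 7.70 to 9.39%, counting error only). Klf1, Nfe2, Hbb-bh1 and Hbb-y belong to this class, and of these Klf1 alone had one. From 1 to under 3 the share was 32.4% of 5119, and 2 of the 3 members of that class, Epor and Slc4a1, had a region while Hba-x had none. At 3 or more it was 83.4% of 12779, and both Ache and Gypc had one. Regions found in both replicates were rarer in each class, at 4.62%, 16.6% and 59.4%, with Klf1, Epor and Ache as the 1 member in each.

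Read by position, 4 of the 9 genes had a merged region within 2.5 kb of a start site (Klf1, Epor, Ache and Gypc), beside 53.4% of all genes. At 3 of these the region was found in both replicates, beside 36.8% of all genes. Ache alone had its described start base inside a region, 1 of 9, beside 36.7% of all genes. Under 1 CpG per 100 bp a start base inside a region was rare, at 0.232% of genes, and from 1 to under 3 it was 5.86%. In the same classes 5.43% and 23.9% of genes had a region within 2.5 kb of any annotated start, as Klf1 and Epor did, so most genes of either class had none. The CpG density of the 8 regions had a median of 4.09 per 100 bp, beside 4.08 for all merged regions and 6.02 for those found in both replicates.

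**Figure D4:**
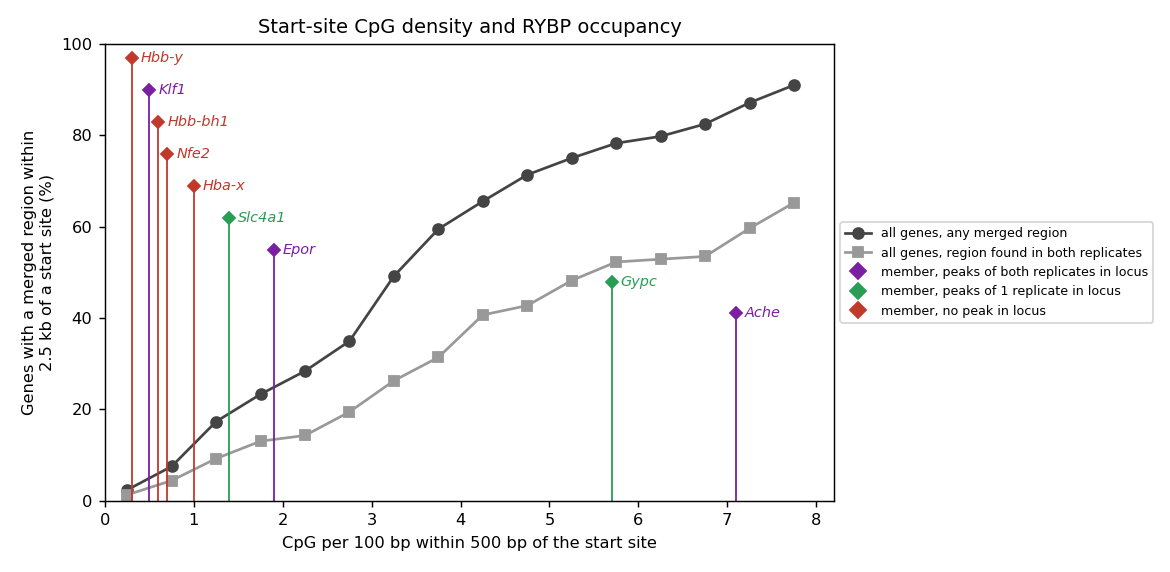
Percent of genes with a merged region within 2.5 kb of a start site (vertical axis) against CpG per 100 bp within 500 bp of the start (horizontal axis, densities under 8), for any region (circles) and for regions found in both replicates (squares). Diamonds mark the CpG density of the 9 genes, with the height chosen only for legibility and the colour giving the replicates with peaks in the locus. Occupancy of all genes climbs from 2.39% to 91.0% for any region, and 7 of the 9 genes stand at densities under 2.

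Letters bound by erythroid factors were searched in the 200 bases before each described start, on both strands. GATAA, the core of the GATA factor motif, was present in 4 of the 9 (Klf1, Epor, Slc4a1 and Hbb-y) and in 16.6% of all genes. CACCC, the core of the KLF1 motif, was present in 7 of the 9, all but Nfe2 and Hba-x, and in 45.9% of all genes. The motifs can share at most 1 base with each other. Either was found both at genes with a RYBP peak and at Hbb-y, where none was called. A match is a run of letters and not a bound site.

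Other genes of the erythroid programme were counted by list, of which 53 of 55 names matched the annotation. Of the 53, 41 (77.4%) had a merged region in the locus and 29 (54.7%) one found in both replicates, beside the 57.1% and 38.9% of all genes. A CpG-rich start was present in 33 of the 53, and 32 of these 33 had a region, against 5 of 11 under 1 CpG per 100 bp and 4 of 9 from 1 to under 3. Over all genes the shares of these classes were 83.4%, 8.52% and 32.4%. A region found in both replicates was present in 25 of the 33, 2 of the 11 and 2 of the 9. Over all genes the shares with such a region were 59.4%, 4.62% and 16.6%. The wider lists stood above these shares, but the lower classes hold few genes and the lists were chosen with earlier results known.

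The lists are given by role, each to be read beside the 57.1% and 38.9% of all genes. They also differ in other ways: a CpG-rich start was present in 7 of 8 genes of erythropoietin signalling, 11 of 14 transcription factors, 2 of 5 genes of iron supply, 7 of 8 of heme synthesis, 5 of 12 of the membrane and 1 of 6 globin genes, and loci ran from 5813 bp (Hba-a2) to 572401 bp (Sox6). The part of CpG density and locus length in the counts was not tested. All 8 genes of erythropoietin signalling had a region and 7 one found in both replicates, with Kit, the stem cell factor receptor (fold enrichment 4.09 and 5.60 in replicates 1 and 2), and Socs3, a feedback inhibitor of cytokine receptors (4.13 and 4.01), highest by the smaller replicate value. Stat5a, which carries the receptor's signal to the nucleus (2.90 and 4.14), and Cish, another feedback inhibitor (3.25 and 4.64), were lowest. Epor (3.46 and 3.79) stood within this range by the smaller value and in replicate 1. In replicate 2 it lay below all 8 genes, of which Socs3 was lowest at 4.01. Of 14 erythroid transcription factors and cofactors 13 had a region and 10 one found in both replicates. Zfpm1, the GATA1 cofactor FOG1 (5.24 and 6.65), and Myb (4.53 and 4.45) were highest by the smaller replicate value, Mafk, the small partner of NFE2 (3.27 and 2.92), and Ldb1 (3.05 and 5.21) were lowest, and Gata1 had none. In replicate 1 alone Tal1, which encodes SCL, had the largest value of the lists, 11.3, with 4.17 in replicate 2. Klf1 sat among these genes, and Nfe2 and Gata1 were the factors without a region.

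Genes of iron supply, heme synthesis and the membrane serve the maturing red cell, and are ordered here by the smaller replicate value too. In iron supply, 5 of 5 had a region and 4 one found in both replicates, from Tfrc, the transferrin receptor (4.16 and 4.15), and Slc25a37, the mitochondrial iron importer (3.84 and 4.77), down to Slc11a2, an iron transporter (3.83 and 4.60), and Steap3, a ferric reductase (3.33 and 4.2). In heme synthesis it was 6 of 8 and 3, with Cpox (3.25 and 4.41) and Urod (4.01 and 3.18) highest, Alad (2.95 and 2.56) lowest, and Alas2, the red cell form of the first enzyme of the pathway, among those without a region. In the membrane and its skeleton it was 7 of 12 and 5. Ank1, which encodes ankyrin (4.12 and 4.70), and Slc2a1, the glucose transporter GLUT1 (4.01 and 4.15), were highest, and Spnb1, a spectrin (3.10 and 3.96), and Add2, an adducin whose replicate peaks did not overlap (3.32 and 3.08), were lowest. Rhag, Kel and Aqp1 were among those without a region.

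The other globin genes resembled the 3 embryonic ones in having 0 regions found in both replicates. Hba-a1 and Hbq1 had the same replicate 1 region, with a fold enrichment of 2.86, and Hba-a2, Hbb-b1, Hbb-b2 and Hbb-bh2 had none. Of 9 globin genes in all, counting Hba-x, Hbb-bh1 and Hbb-y, 2 were thus touched by 1 weak region of 1 replicate.

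**Figure D5:**
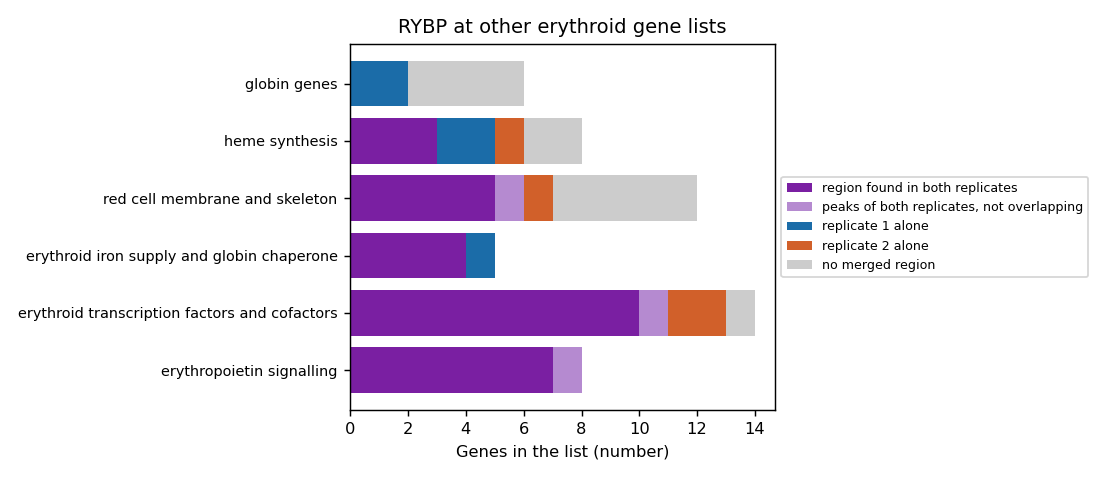
Number of genes (horizontal axis) in each of 6 lists of other erythroid genes, split by what the locus holds: a region found in both replicates, peaks of both replicates that do not overlap, peaks of replicate 1 or of replicate 2 alone, or no merged region. Erythropoietin signalling and transcription factors are mostly filled, with 7 of 8 and 10 of 14 in the first class, and the 6 globin genes have none in it.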

How the data were processed

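RYBP ChIP-seq was analysed from 2 replicates of wild-type FLK1+ mesoderm, grouped by the labels. Per the methods, chromatin was cross-linked with EGS and formaldehyde, paired-end reads were aligned to mm9 with Bowtie (1.1.2b in the submitters' processing notes), duplicates were removed, and broad peaks were called with MACS2 2.0.10. The deposited lists give positions, a fold enrichment (a linear ratio), the −log10 of the p-value and of the q-value, and a score, which is 10 times the −log10 q and was not used further. The merged list deposited by the authors holds positions only. It is the union of both lists, with replicate 2 starts moved by 1 bp, so positions are exact to within 1 bp. Input samples were not analysed here, and 0 columns of other samples were present. SCL is named in the series' design text, but the antibody and title give RYBP.

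Regions were set against GENCODE M1 genes and the sequence of the same build, with an overlap of at least 1 bp, in Python 3.11.15 with numpy 2.4.6 and scipy 1.17.1, and figures were drawn with matplotlib 3.10.9. The described start was that of the longest coding transcript, or of the longest with more than 1 exon where this was a single-exon model, a change that concerned Gypc among the 9 genes and was made after seeing the data. CpG was counted in 500 bp on each side of the start, and called rich from 3 per 100 bp. The wider lists and the motifs, like the 9 genes, were chosen with earlier results of these data known. The named genes were all 9, every gene overlapped by a named region, the 2 highest and 2 lowest of each list by the smaller replicate fold enrichment, and the nearest in fold enrichment. Some genes of the lists without a region and the genes Tal1, Sox6, Rrm1 and Trim6 were named after their values were seen. List names without a match in the annotation were left out, and some genes of the lists are not reported here by name. Mouse strain differences from the reference were not examined. Interval code was tested on simulated data. Alternatives were stricter thresholds, other locus, start and CpG windows, 50% overlap, and 1 replicate at a time.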

Additional observations from a re-analysis of the deposited data

How the results depend on the processing

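Of 40 alternative counts, 33 stayed within 1.5 times the reported one, and of 16 alternative fold enrichment values 15 moved by less than the spread. The number of genes with a region at a start site went from 4 to 1 when only the described start base counted, a setting chosen after seeing the data. The number with a CpG-rich start, 1 by the longest coding transcript of any kind, was 2 both with the most 5′ start and with the multi-exon start, the latter also added later. The 15 regions around the globin genes became 6 within 50 kb, 7 at a −log10 q of at least 2 and 5 when found in both replicates, and 8 to 12 with a replicate left out. With a replicate left out, the loci with a region numbered 4 in both cases, those with one at a start 3 to 4, and the wider erythroid genes 36 to 37. Without replicate 1 Slc4a1 lost its regions and without replicate 2 Gypc did. A stricter q-value or fold enrichment removed Slc4a1. Klf1 left the count of regions found in both replicates, then 2, when coverage of 50% of the region by each replicate was required. With 20 kb upstream Hba-x gained the Nprl3 region (3.56 and 3.21) and Slc4a1 a replicate 2 peak (3.63), and without upstream sequence Ache in replicate 2 read 3.63. The causes were not tested. Leaving out a replicate cannot be applied to regions found in both. No paired analysis was possible because no result comes from a test, and the inputs, whose numbers match those of the ChIP samples, were not used here.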
